A study of Mus musculus with 16 samples.

Results

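The matrix of the liver is built and remodelled by a small number of well-studied genes, and 10 of them are described here in 16 mouse liver RNA libraries. They are the fibrillar collagen genes Col1a1, Col1a2, Col3a1 and Col5a2, the basement membrane collagen gene Col4a1, the protease inhibitor gene Timp1, the crosslinking enzyme gene Lox, the stellate and smooth muscle cell genes Acta2 and Des, and the cytokine gene Tgfb1. They were taken by symbol as matrix and fibrosis genes, with earlier results of these data known, and are 10 of the 27288 genes in the deposited table. RNA was sequenced as single reads of 75 bases from snap-frozen livers of C57BL/6 mice aged 8 to 10 weeks, with 4 libraries in each of 4 groups. The groups were mice labelled as liver-specific knockouts of Dnm1l, the gene for the mitochondrial fission GTPase DRP1, in the Gao-Binge model, in which ethanol feeding ends with a single large dose of ethanol; wild-type mice in the same model; the labelled knockouts under the control condition; and wild-type mice under the control condition, called control diet here. The sources used here give neither the Cre driver nor the alleles the wild-type mice carried, and the labels do not say that each library came from its own mouse, so p-values measure the spread between these libraries.

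Fibrillar collagens of types I, III and V form the tensile fibres of scar tissue, while type IV collagen forms the sheet-like network of basement membranes around vessels and bile ducts. In the liver most fibrillar collagen is known to come from hepatic stellate cells and portal fibroblasts, which turn into myofibroblasts after injury, when TGF-beta acts through SMAD transcription factors to raise collagen genes. Collagen I is a heterotrimer of the Col1a1 and Col1a2 chains, Lox crosslinks the secreted fibres, and Timp1 holds back the proteases that degrade them.

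Depth was between 11425136 and 13864862 reads per library. The deposited values are reads divided by one size factor per library, from 0.81 to 1.26, and are called normalised reads below. Dnm1l, which would check the genotype labels, averaged 803 ± 99.3 normalised reads in knockout and 743 ± 38.4 in wild-type ethanol livers, and 642 ± 72.7 in knockout and 663 ± 56.1 in wild-type control livers (SD, n = 4 each), so its total did not tell the genotypes apart. Genotypes are therefore given as labelled throughout. Libraries 1 and 4 of the knockout ethanol group stood apart: library 1 held 2563 normalised reads of the pancreatic gene Ctrb1 and library 4 held 1506 of the haemoglobin gene Hba-a1, against at most 4.8 and 418 in any other library, and both held the fat cell gene Adipoq (9.8 and 18.3), which was at 0 in the other 14 libraries. Many results that rest on those libraries are also given without them.

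The promoters of Col1a2 and Col3a1 are shown because these genes moved with Col1a1 across libraries and because SMAD proteins act at such promoters. Capitals mark each SMAD element searched for (CAGAC, read as GTCTG on the other strand) and each TATA box (TATAAA, or TTTATA on the other strand), and these motifs do not overlap here. Both sequences are on the plus strand of RefSeq build GRCm38.p6, and stretches annotated as UTR were left out.
Col1a2 promoter, chr6:4505370-4505492: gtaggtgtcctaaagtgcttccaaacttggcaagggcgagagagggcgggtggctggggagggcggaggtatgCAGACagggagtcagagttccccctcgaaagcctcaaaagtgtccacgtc
Col3a1 promoter, chr1:45311288-45311537: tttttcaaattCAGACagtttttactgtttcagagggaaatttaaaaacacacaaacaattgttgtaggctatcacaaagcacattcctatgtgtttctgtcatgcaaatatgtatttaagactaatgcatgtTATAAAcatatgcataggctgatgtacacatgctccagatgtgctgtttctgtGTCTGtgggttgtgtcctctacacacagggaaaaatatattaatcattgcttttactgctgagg
The Col1a2 stretch of 123 bases, which lies inside the GENCODE gene because GENCODE starts that gene farther upstream, held 1 SMAD element, which began 50 bases before its end. The Col3a1 stretch, which ends where the annotated gene begins, held 2 SMAD elements, beginning 239 and 64 bases before that point, and 1 TATA box beginning 117 bases before it. Of 27025 promoter windows, 23.0% held a SMAD element in a stretch as long as that of Col1a2 and 42.1% in a stretch as long as that of Col3a1, and 12.97% held a TATA box in the longer stretch, so such matches are common and only describe the letters. Of the 10 genes, 7 matched an entry in the RefSeq promoter table.

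Col1a1 (ENSMUSG00000001506, chr11:94936224-94953042 in GRCm38) encodes the alpha-1 chain of collagen I. Its values were 155.4, 149.2, 135.4 and 255.0 normalised reads in the knockout ethanol libraries and 63.9, 69.9, 44.6 and 50.4 in the wild-type ethanol libraries. All knockout libraries lay above all wild-type libraries, with library 4 highest. On control diet it had 90.1, 134.4, 125.2 and 178.3 normalised reads in knockout and 64.1, 57.7, 91.9 and 72.7 in wild-type libraries, where the groups overlapped by 1 pair of libraries. By limma on log2(value + 1), with Benjamini-Hochberg adjustment over the 13256 genes tested, Col1a1 was 2.95-fold higher in knockout livers on ethanol (log2 1.56, SE 0.23, adjusted p = 0.000212) and 1.81-fold higher on control diet (log2 0.85, SE 0.23, adjusted p = 0.0226). On control diet the adjusted p moved to between 0.0521 and 0.0749 when library 1, 2 or 4 of the wild-type or library 2 or 4 of the knockout control group was left out. In bulk tissue, more cells of a type and more RNA per cell cannot be told apart, here and for every gene below.

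Col1a2 (ENSMUSG00000029661, chr6:4504814-4541544), the gene of the partner chain in collagen I, followed a similar order. It had 261.6, 232.9, 192.4 and 351.2 normalised reads in knockout and 147.4, 167.8, 115.2 and 93.5 in wild-type ethanol libraries, with no overlap. On control diet the knockout libraries had 181.3, 243.3, 188.8 and 284.6 and the wild-type libraries 133.1, 131.2, 157.7 and 151.5, again with no overlap. Col1a2 was 1.98-fold higher in knockout livers on ethanol (log2 0.98, SE 0.20, limma adjusted p = 0.0041). On control diet its difference of log2 0.62 (SE 0.20) missed the threshold by limma (adjusted p = 0.0531) and passed it by edgeR (adjusted p = 0.0408) and by DESeq2 (adjusted p = 0.0232) on the recovered reads.

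Col3a1 (ENSMUSG00000026043, chr1:45311538-45349706) encodes collagen III, the fine reticular fibre of the sinusoid wall and of early scar. On ethanol it had 312.8, 220.7, 167.1 and 420.5 normalised reads in knockout and 99.5, 110.7, 78.0 and 133.8 in wild-type libraries. On control diet it had 315.0, 470.6, 278.1 and 622.2 in knockout and 194.2, 253.5, 307.4 and 358.1 in wild-type libraries. The ethanol groups did not overlap and the control groups did. Col3a1 was 2.53-fold higher in knockout livers on ethanol (log2 1.34, SE 0.29, limma adjusted p = 0.00599), while its difference on control diet was log2 0.56 (SE 0.29, limma adjusted p = 0.234).

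Col5a2 (ENSMUSG00000026042, chr1:45374321-45503282), a chain of collagen V that helps to start collagen I fibres, was the steadiest of the fibrillar genes in knockout ethanol livers. It had 88.5, 86.8, 94.2 and 89.5 normalised reads there and 27.0, 43.1, 24.2 and 39.4 in wild-type ethanol livers. On control diet it had 37.3, 51.1, 81.0 and 79.2 in knockout and 31.6, 46.7, 32.9 and 21.8 in wild-type libraries, with overlap. It was 2.71-fold higher in knockout livers on ethanol (log2 1.44, SE 0.26, limma adjusted p = 0.00172) and 1.82-fold higher on control diet (log2 0.86, SE 0.26, limma adjusted p = 0.0421). The control-diet difference rested on libraries 3 and 4, since libraries 1 and 2 alone gave log2 0.18, and its limma adjusted p was 0.0517 to 0.140 in 10 of 16 fits that left out 1 library: library 1, 3 or 4 of the wild-type control, 2, 3 or 4 of the knockout control, or any of the knockout ethanol group.

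Without libraries 1 and 4 of the knockout ethanol group, which leaves 2 libraries there, Col1a1 and Col5a2 stayed past the threshold on ethanol. Col1a2 and Col3a1 then did not, with differences of log2 0.72 (limma adjusted p = 0.108) and 0.88 (limma adjusted p = 0.151). Leaving out any 1 library ended none of the 4 fibrillar calls on ethanol.

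**Figure D1:**
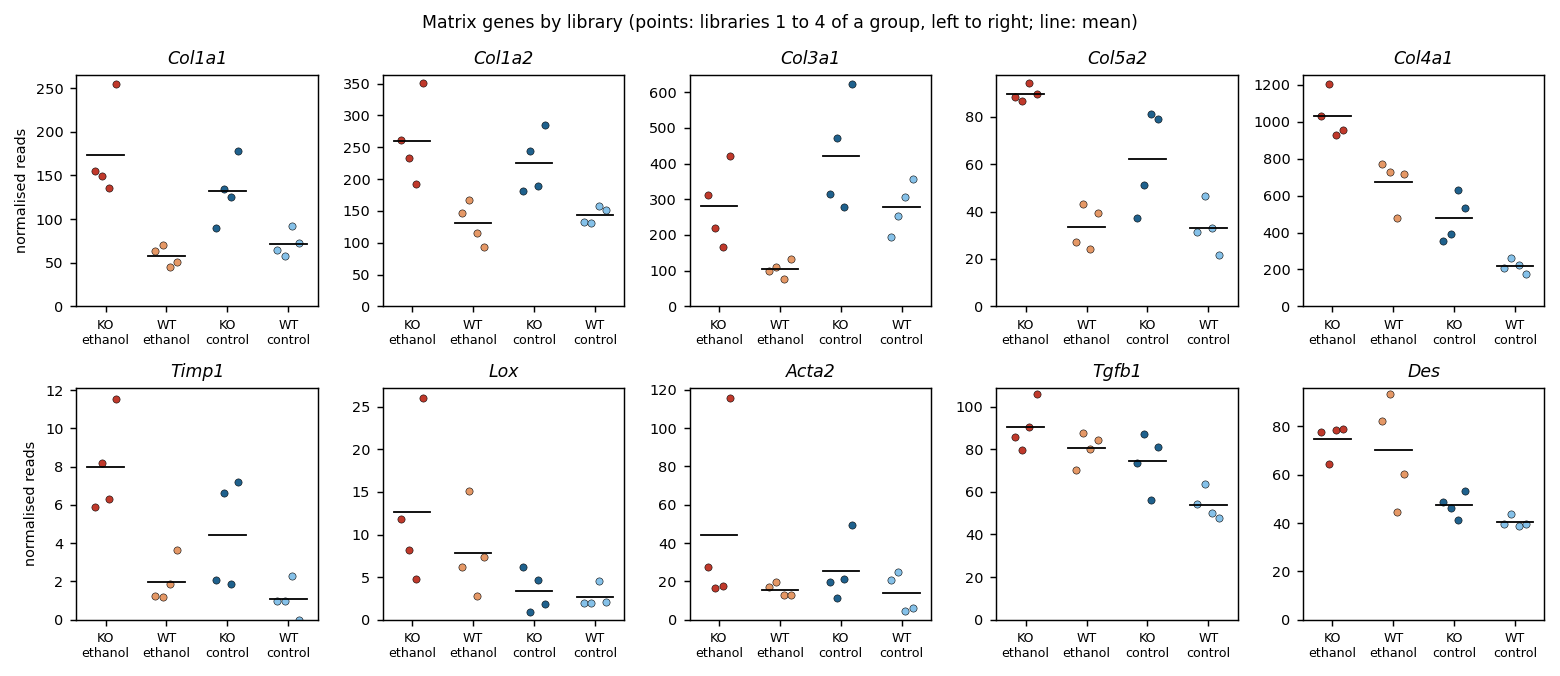
Normalised reads (y axis) of the 10 matrix genes in each of 16 libraries, with points for libraries 1 to 4 of a group from left to right and a line at the group mean. Knockout ethanol points lie above all wild-type ethanol points for the 5 collagen genes and Timp1, and library 4 of the knockout ethanol group stands out for Acta2 at 115.5.

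Col4a1 (ENSMUSG00000031502, chr8:11198423-11312826), the gene of the most common basement membrane collagen chain, moved with both genotype and ethanol. It had 1030.8, 1204.5, 928.1 and 953.7 normalised reads in knockout ethanol, 770.2, 729.4, 480.2 and 718.5 in wild-type ethanol, 355.4, 394.8, 628.9 and 534.0 in knockout control and 210.0, 264.4, 225.7 and 174.4 in wild-type control libraries. No library of one group overlapped another group in any of the 4 pairs compared. It was 3.06-fold higher with ethanol in wild-type livers (log2 1.61, SE 0.18, limma adjusted p = 8e-06) and 2.19-fold higher in knockout livers (log2 1.13, SE 0.18, limma adjusted p = 0.000605). Knockout livers had 2.15-fold more on control diet (log2 1.10, SE 0.18, limma adjusted p = 0.000923) and 1.54-fold more on ethanol (log2 0.62, SE 0.18, limma adjusted p = 0.0400). The call on ethanol was narrow: the limma adjusted p was 0.0636 with the replicate number as a block and 0.0512 to 0.103 without library 1 of the wild-type control, 2, 3 or 4 of the wild-type ethanol or any of the knockout ethanol group. Without both library 1 and library 4 of the knockout ethanol group it was 0.163 (log2 0.67).

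Col4a2 (ENSMUSG00000031503), which encodes the partner chain and lies head to head with Col4a1, was followed beside it. The 2 genes share 22 bases at their starts on opposite strands, and the sources used here do not say whether counting used strand. Col4a2 had 442.6, 559.9, 464.8 and 474.4 normalised reads in knockout ethanol and 506.1, 489.4, 346.5 and 526.1 in wild-type ethanol libraries, and the groups overlapped. On control diet it had 217.6, 271.7, 327.8 and 378.2 in knockout and 191.3, 234.6, 188.3 and 122.5 in wild-type libraries. By limma it was 2.56-fold higher with ethanol in wild-type livers (log2 1.36, SE 0.19, adjusted p = 6.16e-05), 1.65-fold higher with ethanol in knockout livers (log2 0.72, SE 0.19, adjusted p = 0.0157) and 1.63-fold higher in knockout livers on control diet (log2 0.70, SE 0.19, adjusted p = 0.0270). The call with ethanol in knockout livers ended without library 1 of the knockout control or 2 of the knockout ethanol group, and the call on control diet without library 4 of the wild-type or 3 or 4 of the knockout control group. The call with ethanol in knockout livers also ended without both library 1 and library 4 of the knockout ethanol group. On ethanol the genotype difference was log2 0.07 with a 95% interval from -0.34 to 0.48. Within a library, Col4a1 was 1.95 to 2.27 times Col4a2 per kilobase in knockout ethanol, 1.33 to 1.48 times in wild-type ethanol, 1.38 to 1.87 times in knockout control and 1.07 to 1.39 times in wild-type control livers.

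Counted together on ethanol, 5 of the 8 genes that passed the floor of a mean of 10 normalised reads were higher in knockout than in wild-type livers and none was lower, where 6.13% of all genes tested were called higher and 3.75% lower (9.88% in all). The 5 were the 5 collagen genes, and all 5 also had groups that did not overlap, against 8.36% of genes tested that lay higher without overlap and 7.38% that lay lower. The median of the 8 was log2 0.97, beside -0.02 over all genes. On control diet 3 of 8 were higher and none lower (Col1a1, Col5a2 and Col4a1), where 6.4% of genes were called higher and 5.24% lower. Groups did not overlap on control diet for 2 of the 8 (Col1a2 and Col4a1), where 8.68% of genes lay higher and 8.72% lower without overlap, and the median was log2 0.74, beside -0.01 over all genes. Without libraries 1 and 4 of the knockout ethanol group the count on ethanol was 2 of 8. Calls over all 13256 genes then went from 1310 to 496 (393 higher and 103 lower). On control diet the count was 1 without library 1 or 4 of the wild-type or library 2 or 4 of the knockout control group. Calls over all genes then went from 1544 to 1039, 922, 1199 and 1193, in that order.

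**Figure D2:**
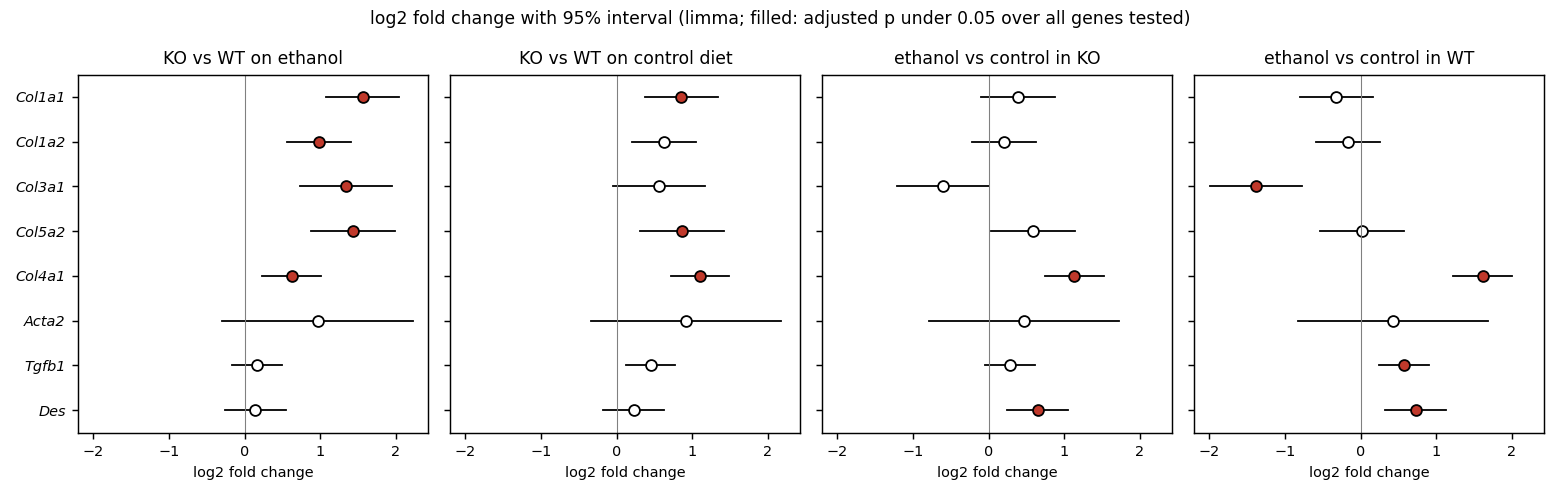
Log2 fold change (x axis) of the 8 matrix genes tested, in 4 comparisons, with 95% intervals from limma and filled points where the adjusted p was under 0.05. The collagen genes lie right of 0 in both genotype comparisons, and with ethanol in wild-type livers Col3a1 lies at -1.38 and Col4a1 at 1.61.

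With ethanol in wild-type livers Col3a1 and Col4a1 differed in opposite directions. Col3a1 was lower with ethanol, at 0.384 times its control level (log2 -1.38, SE 0.29, limma adjusted p = 0.00133), with no overlap, while Col4a1 was higher. Col1a1, Col1a2 and Col5a2 differed by log2 -0.32, -0.16 and 0.02 with ethanol in wild-type livers (limma adjusted p = 0.291, 0.558 and 0.969). Over the 8 genes, 3 rose (Col4a1, Tgfb1 and Des) and 1 fell with ethanol in wild-type livers, where 18.9% of genes tested rose and 19% fell (38% in all), and the median was log2 0.22. The same 4 had groups that did not overlap, where 17.7% of genes lay higher and 17.4% lower without overlap.

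In knockout livers Col3a1 differed by log2 -0.60 with ethanol (SE 0.29, limma adjusted p = 0.151) and Col5a2 by 0.59 (SE 0.26, limma adjusted p = 0.123), and Col1a1 and Col1a2 by 0.39 and 0.20 (limma adjusted p = 0.246 and 0.512). Of the 8 genes, Col4a1 and Des rose with ethanol in knockout livers and none fell, where 10.2% of genes tested rose and 9.01% fell (19.2% in all). Groups did not overlap for Col5a2, Col4a1 and Des, which all lay higher with ethanol, where 11.7% of genes lay higher and 11.3% lower without overlap. Without libraries 1 and 4 of the knockout ethanol group the count called by limma was 1 (Col4a1), while calls over all genes tested went from 2543 to 1003. The median over the 8 with all libraries was log2 0.43.

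Whether ethanol acted differently in the genotypes was tested directly as the difference of the ethanol effects, knockout minus wild type. None of the 8 genes was called by limma, where 0.347% of genes tested were called in either direction, and limma gave 1772 genes at an unadjusted p under 0.05. edgeR and DESeq2 called 30 and 265 genes in all and none of the 8. The difference for Col1a1 was log2 0.71 with a 95% interval from 0.02 to 1.39 (limma adjusted p = 0.358), for Col3a1 0.78 from -0.07 to 1.64 (limma adjusted p = 0.420) and for Col4a1 -0.48 from -1.03 to 0.07 (limma adjusted p = 0.447). The intervals of Col1a1 and Col3a1 reach past a log2 of 1, so a p above the threshold does not show equal effects.

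Ratios within a library cancel its size factor and set fibrillar against basement membrane collagen directly. Per kilobase of the longest transcript tagged as principal, Col3a1 was 0.361, 0.218, 0.214 and 0.524 times Col4a1 in knockout ethanol libraries and 0.154, 0.180, 0.193 and 0.221 times in wild-type ethanol libraries. On control diet the ratios were 1.05, 1.42, 0.526 and 1.39 in knockout and 1.10, 1.14, 1.62 and 2.44 in wild-type libraries. Col3a1 was thus below Col4a1 in every ethanol library and above it in 7 of 8 control libraries, library 3 of the knockout control group being the exception.

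The ratio of Col1a1 to Col4a1 was 0.138 to 0.298 in knockout ethanol and 0.0783 to 0.107 in wild-type ethanol livers, without overlap, and 0.222 to 0.380 in knockout control and 0.243 to 0.465 in wild-type control livers. Col5a2 to Col4a1 was 0.0720 to 0.101 in knockout ethanol and 0.0350 to 0.0590 in wild-type ethanol livers, also without overlap. Col1a2 to Col4a1 overlapped, at 0.239 to 0.456 in knockout ethanol and 0.161 to 0.297 in wild-type ethanol livers. Among the fibrillar genes, Col3a1 to Col1a1 lay lower in every ethanol library than in any control library of its genotype: it was 1.32 to 2.15 in knockout ethanol and 1.66 to 2.83 in wild-type ethanol livers, against 2.37 to 3.73 in knockout control and 3.23 to 5.25 in wild-type control livers. Col1a1 to Col1a2, the chain ratio of collagen I, was 0.536 to 0.655 in knockout ethanol and 0.349 to 0.486 in wild-type ethanol livers. No test was made of these ratios.

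**Figure D3:**
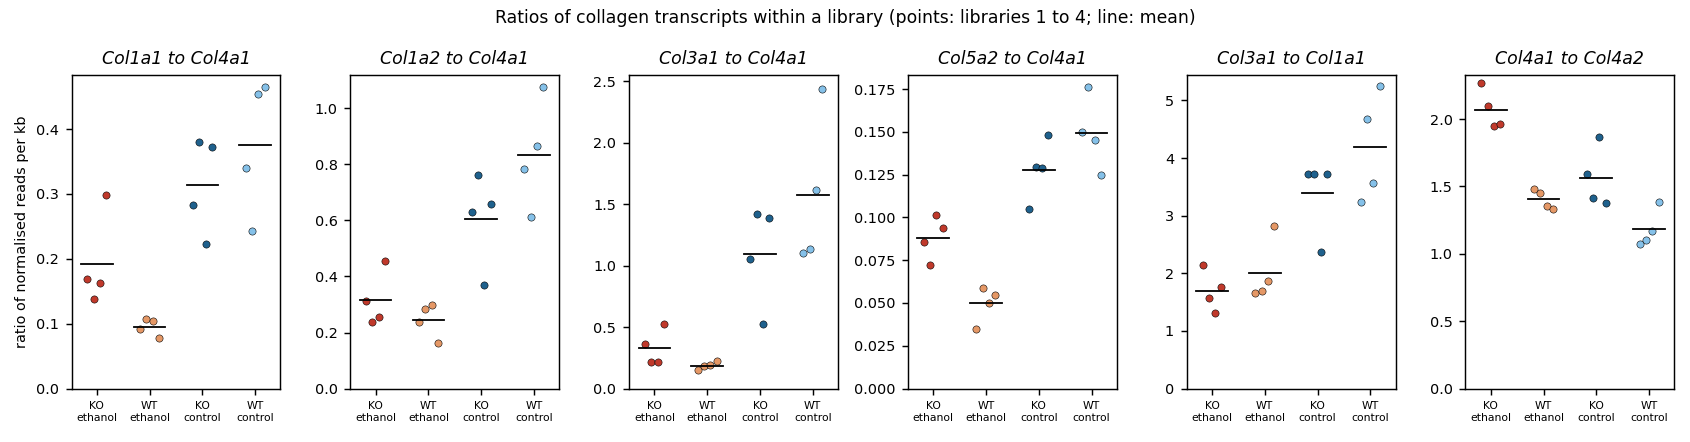
Ratio of 2 collagen transcripts per kilobase (y axis) in each library, with points for libraries 1 to 4 of a group and a line at the mean. The ratio of Col3a1 to Col4a1 lies at 0.524 or below in all 8 ethanol libraries, and that of Col4a1 to Col4a2 lies at 1.95 or above only in the 4 knockout ethanol libraries.

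Timp1 (ENSMUSG00000001131, chrX:20870166-20874735), whose product inhibits matrix metalloproteases, was near the limit of detection and did not pass the floor. It had 6, 8, 8 and 12 reads in knockout and 1, 1, 2 and 4 reads in wild-type ethanol libraries. On control diet it had 2, 7, 2 and 8 reads in knockout and 1, 1, 2 and 0 in wild-type libraries, and a count of 0 allows up to 3 reads. The ethanol groups did not overlap, and a two-sided exact permutation test gave p = 0.0286, the smallest that 4 against 4 libraries can give. Fitted with all 27288 genes, the adjusted p on ethanol was 0.0567 by limma and 0.0701 by edgeR, so Timp1 was not called, and on control diet the exact permutation p was 0.0857. Timp1 lies within Syn1 on the opposite strand, so its few reads are uncertain.

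Lox (ENSMUSG00000024529, chr18:52516067-52529867), the lysyl oxidase that starts collagen crosslinking, also lay below the floor. It had 12, 8, 6 and 27 reads in knockout ethanol, 5, 13, 3 and 8 in wild-type ethanol, 6, 1, 5 and 2 in knockout control and 2, 2, 4 and 2 in wild-type control libraries. Genotype groups overlapped on both diets (exact permutation p = 0.400 on ethanol and 0.857 on control diet, two-sided). Ethanol groups held 53 reads in knockout and 29 in wild-type livers in sum, against 14 and 10 in the control groups of the same genotypes, with an exact permutation p of 0.0571 for ethanol in each genotype.

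Acta2 (ENSMUSG00000035783, chr19:34241090-34255590), the smooth muscle actin used as the marker of activated stellate cells, was low and rested on 1 library. It had 27.5, 16.3, 17.4 and 115.5 normalised reads in knockout ethanol, 17.2, 19.8, 13.005 and 12.8 in wild-type ethanol, 19.7, 11.4, 21.2 and 49.5 in knockout control and 20.7, 24.9, 4.5 and 6.2 in wild-type control libraries. The groups overlapped in all 4 comparisons, and none was called (limma adjusted p = 0.344 for genotype on ethanol and 0.361 on control diet). In the same library 4 of the knockout ethanol group the smooth muscle genes Myh11, Cnn1 and Actg2 were at 121.3, 19.2 and 16.4 normalised reads, against at most 35.8, 5.4 and 5.5 in the other 15 libraries. Tagln, another smooth muscle gene, was at 6.7 there, the lowest of its group (7.9 to 10.8 in the other 3). The fibroblast genes Dpt and Clec3b were at 219.4 and 14.4 there, against at most 105.4 and 4.0. Thy1, another fibroblast gene, was at 20.2 there, below libraries 2 and 4 of the knockout control group (27.5 and 21.6). The mesothelial genes Msln and Upk3b were at 13.5 and 17.3 there, below library 1 of the wild-type control group (49.3 and 77.9). Library 4 of the knockout ethanol group was the highest of its group for 8 of the 10 genes described (all but Col5a2 and Col4a1), and for 23.3% of all genes tested. The part of these other cells in the values of library 4 was not tested.

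Des (ENSMUSG00000026208, chr1:75360329-75368579), an intermediate filament of stellate and muscle cells, was called with ethanol in both genotypes and between genotypes on neither diet. It had 77.7, 64.4, 78.4 and 78.9 normalised reads in knockout ethanol, 82.3, 93.2, 44.6 and 60.5 in wild-type ethanol, 48.7, 46.4, 41.4 and 53.1 in knockout control and 39.4, 43.7, 38.6 and 39.4 in wild-type control libraries. Every ethanol library lay above every control library of its genotype. Des rose 1.66-fold with ethanol in wild-type livers (log2 0.73, SE 0.19, limma adjusted p = 0.00624) and 1.57-fold in knockout livers (log2 0.65, SE 0.19, limma adjusted p = 0.0247). The call in knockout livers ended, at a limma adjusted p of 0.0513 to 0.0623, without library 2 or 3 of the knockout control or library 1, 3 or 4 of the knockout ethanol group, and was 0.176 without both library 1 and library 4. Between genotypes it differed by log2 0.14 on ethanol (95% interval -0.26 to 0.54) and 0.23 on control diet (-0.18 to 0.63).

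Other stellate cell markers were measured beside Des and the collagens. Of 20 stellate markers tested, Des included, none was higher and 2 were lower in knockout livers on ethanol, where 6.13% of all genes tested were higher and 3.75% lower. The summed level of the 20 listed markers other than Des was 5988 to 6627 normalised reads in knockout and 6674 to 7421 in wild-type ethanol livers. With ethanol in wild-type livers 7 of 20 rose and 3 fell, and in knockout livers 4 rose and none fell, where 38% of all genes were called in wild-type and 19.2% in knockout livers. Without libraries 1 and 4 of the knockout ethanol group, at least 1 of those 4 rises and 1 of the 2 lower calls between genotypes ended. Lrat, which makes the retinyl esters that stellate cells store, was at 201.6 to 346.4 normalised reads in knockout ethanol and 242.4 to 479.3 in wild-type ethanol livers. Of 9 myofibroblast markers tested, 1 was higher in knockout livers on ethanol, beside the same 6.13% of all genes. That call ended without libraries 1 and 4 of the knockout ethanol group. The summed level of the 14 markers that are not among the 10 genes was 1666 to 2302 in knockout and 1200 to 1627 in wild-type ethanol livers.

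Most macrophage markers were higher in knockout livers. On ethanol 13 of 15 genes that mark Kupffer cells and other macrophages were higher in knockout livers and none was lower, where 6.13% of all genes tested were higher and 3.75% lower. Their summed level was 7246 to 9114 normalised reads in knockout and 1784 to 2673 in wild-type ethanol livers. None of the 15 was at 0 in all libraries of a group. On control diet 9 were higher and 1 lower, where 6.4% of all genes were higher and 5.24% lower. The summed level was then 8362 to 12982 in knockout and 3694 to 8220 in wild-type livers. The summed hepatocyte markers were 1328812 to 1960738 in knockout and 1756776 to 2337395 in wild-type ethanol livers, with overlap. On control diet they were 1499484 to 1574811 in knockout and 1870770 to 2179805 in wild-type livers, without overlap. The part of these cell types in the collagen values was not tested.

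Tgfb1 (ENSMUSG00000002603, chr7:25687002-25705077), the main profibrotic cytokine of the liver, was called with ethanol in wild-type livers and between genotypes on neither diet. It had 85.6, 79.7, 90.3 and 105.9 normalised reads in knockout ethanol, 70.0, 87.4, 79.9 and 84.3 in wild-type ethanol, 73.6, 87.1, 56.2 and 81.0 in knockout control and 54.2, 63.6, 49.9 and 47.7 in wild-type control libraries. Only the wild-type diet groups did not overlap. Tgfb1 was 1.49-fold higher with ethanol in wild-type livers (log2 0.57, SE 0.16, limma adjusted p = 0.00818). Between genotypes it differed by log2 0.16 on ethanol (SE 0.16, limma adjusted p = 0.568) and 0.45 on control diet (SE 0.16, limma adjusted p = 0.0696). The control-diet difference passed the threshold without library 3 of the knockout control group (log2 0.58, limma adjusted p = 0.0216).

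Other genes of the TGF-beta pathway changed in both directions on ethanol. Of 20 ligands, receptors and SMADs tested, 1 was higher and 4 were lower in knockout livers, where 6.13% of all genes tested were higher and 3.75% lower. Tgfb2, a second ligand, averaged 32.9 ± 8.97 normalised reads in knockout and 8.69 ± 1.29 in wild-type ethanol livers (SD, n = 4 each) and was 3.43-fold higher (log2 1.78, limma adjusted p = 0.00681). Its wild-type ethanol mean lay under the floor of 10, so it passed the floor through groups where it was higher, the knockout ethanol group among them. Tgfbr3, the co-receptor betaglycan, was lower, at 122 ± 10.1 in knockout and 200 ± 39.9 in wild-type ethanol livers (log2 -0.70, limma adjusted p = 0.00983). Neither was called without libraries 1 and 4 of the knockout ethanol group, where the counts were none higher and 1 lower. Of all 13256 genes tested, 393 were then higher and 103 lower. On control diet none of the 20 was called by limma in either direction, where 11.6% of all genes tested were called.

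With ethanol in wild-type livers 8 of these 20 rose and 1 fell, where 18.9% of all genes tested rose and 19% fell. Among the 8 was the type II receptor gene Tgfbr2, at 1534 ± 259 with ethanol and 600 ± 95.6 on control diet (log2 1.35, limma adjusted p = 1.27e-05). Of 16 genes listed as TGF-beta response genes, 9 rose and none fell with ethanol in wild-type livers, beside the same shares of all genes. The part of TGF-beta in these rises was not tested. In knockout livers 5 of the 16 rose and none fell, where 10.2% of all genes rose and 9.01% fell. Between genotypes 1 of the 16 was higher in knockout livers on each diet, where 6.13% of all genes were higher on ethanol and 6.4% on control diet. Without libraries 1 and 4 of the knockout ethanol group 2 rose in knockout livers, where 578 of the 13256 genes tested rose. None of the 16 was then called between genotypes on ethanol.

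The fibrillar list held 5 of 8 tested genes higher in knockout livers on ethanol, where 6.13% of all genes tested were higher. Of the 5, 4 are the genes described above, which were chosen with earlier results known. Of the 4 other fibrillar genes tested 1 was higher, with a median over the 4 of log2 0.06. The fifth was Col5a3, another collagen V chain, at 172 ± 15.4 normalised reads in knockout and 84.96 ± 50.8 in wild-type ethanol livers (log2 1.16, limma adjusted p = 0.0277), a call that ended without library 1, 2 or 4 of the wild-type or any library of the knockout ethanol group. The count was 2 of 8 without libraries 1 and 4 of the knockout ethanol group, where calls over all genes tested went from 1310 to 496. With ethanol Col5a3 was lower in wild-type livers, where it averaged 569.9 ± 191 on control diet (log2 -2.83, limma adjusted p = 6.85e-06), and Col27a1, at 229 ± 48.2 with ethanol and 1161 ± 339 on control diet (log2 -2.31, limma adjusted p = 6.03e-05). In knockout livers both also fell with ethanol (log2 -1.80 and -2.09, limma adjusted p = 0.00112 and 0.000481). Of 8 collagens tested that are neither fibrillar nor type IV, 2 were higher and 2 lower in knockout livers on ethanol, where 3.75% of all genes were lower. Among the 3 type IV genes tested beside Col4a1 none was called between genotypes on ethanol, with a median of log2 0.006.

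Other basement membrane genes changed in both directions with ethanol, which also called more of all genes tested (38% in wild-type and 19.2% in knockout livers) than genotype did (9.88% on ethanol and 11.6% on control diet). Of 16 laminins, nidogens and related genes tested, 7 rose and 4 fell with ethanol in wild-type livers, 6 rose and 3 fell in knockout livers, and between genotypes 1 was higher on ethanol and none on control diet. Nid1, which links laminin to collagen IV, averaged 672 ± 258 normalised reads with ethanol and 139 ± 26.0 on control diet in wild-type livers (log2 2.19, limma adjusted p = 5.37e-06), and 445 ± 73.0 with ethanol and 139.8 ± 29.9 on control diet in knockout livers (log2 1.67, limma adjusted p = 0.000224). Lama3, a laminin chain of epithelia, fell with ethanol to 15.3 ± 4.90 in wild-type livers, against 101 ± 17.3 on control diet (log2 -2.68, limma adjusted p = 2.33e-05). The gene higher in knockout livers on ethanol was Agrn, the heparan sulphate proteoglycan agrin, at 505 ± 38.1 in knockout and 339 ± 26.4 in wild-type livers (log2 0.57, limma adjusted p = 0.0067), which was not called without libraries 1 and 4 of the knockout group. Leaving both out, 3 of the 16 rose and 2 fell with ethanol in knockout livers, where 578 of the 13256 genes tested rose and 425 fell.

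Endothelial markers were counted beside the basement membrane genes. Of 17 endothelial markers, 10 rose and 1 fell with ethanol in wild-type livers, where 18.9% of all genes tested rose and 19% fell, with a summed level of 4734 to 5790 normalised reads with ethanol and 3209 to 3844 on control diet. In knockout livers 7 rose and none fell, where 10.2% of all genes rose and 9.01% fell, with 4290 to 5142 with ethanol and 2985 to 4284 on control diet, and none of the 17 was called between genotypes on either diet by limma. Their part in the level of Col4a1 was not tested.

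Genes that modify the matrix were counted next. Of 15 proteases and inhibitors tested, 2 were higher and none lower in knockout livers on ethanol, and 2 were higher and 1 lower on control diet. Over all genes tested, 6.13% were higher and 3.75% lower on ethanol, and 6.4% were higher and 5.24% lower on control diet. Mmp12, the elastase of macrophages, was 1 of the 2 higher on each diet. It averaged 54.0 ± 19.7 normalised reads in knockout and 5.31 ± 3.73 in wild-type ethanol livers, and 58.9 ± 21.3 in knockout and 8.53 ± 5.43 in wild-type control livers. Both wild-type means of Mmp12 lay under the floor, so it passed the floor only through the knockout groups. The floor thus selected Mmp12 by the same genotype difference that was then tested, so its p-values are not given and its place in both counts is no support. With ethanol in wild-type livers 5 of the 15 rose and 2 fell, and in knockout livers 6 rose. Of all genes tested, 18.9% rose and 19% fell in wild-type livers, and 10.2% rose in knockout livers. Adamts1, a secreted protease that cuts proteoglycans, averaged 582 ± 127 with ethanol and 98.9 ± 15.4 on control diet in wild-type livers (log2 2.53, limma adjusted p = 2.88e-07) and 494 ± 111 with ethanol and 132 ± 40.1 on control diet in knockout livers (log2 1.92, limma adjusted p = 1.86e-05).

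Among 28 matrix glycoproteins and proteoglycans, 3 were higher and 1 lower in knockout livers on ethanol, where 6.13% of all genes tested were higher and 3.75% lower. Lgals3, the galactose-binding lectin galectin-3 of macrophages, averaged 145 ± 42.8 normalised reads in knockout and 19.4 ± 3.31 in wild-type ethanol livers (log2 2.81, limma adjusted p = 1.34e-06), and 120 ± 23.1 in knockout and 32.6 ± 14.7 in wild-type control livers (log2 1.92, limma adjusted p = 0.000115). Of 21 genes that process or crosslink collagen, 1 was higher in knockout livers on ethanol and none was called on control diet by limma. Without libraries 1 and 4 of the knockout ethanol group, 1 protease or inhibitor, 1 glycoprotein and none of the 21 processing genes were called higher on ethanol. Of all 13256 genes tested, 393 were then called higher. Among 6 PDGF ligands and receptors, 1 was higher in knockout livers on each diet: Pdgfc, a ligand for PDGF receptors on stellate cells, averaged 53.7 ± 7.90 in knockout and 26.2 ± 7.43 in wild-type ethanol livers (log2 1.03, limma adjusted p = 0.00944). Its call on control diet (log2 0.83, limma adjusted p = 0.0301) ended without library 1 of the wild-type or library 1 or 4 of the knockout control group.

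**Figure D4:**
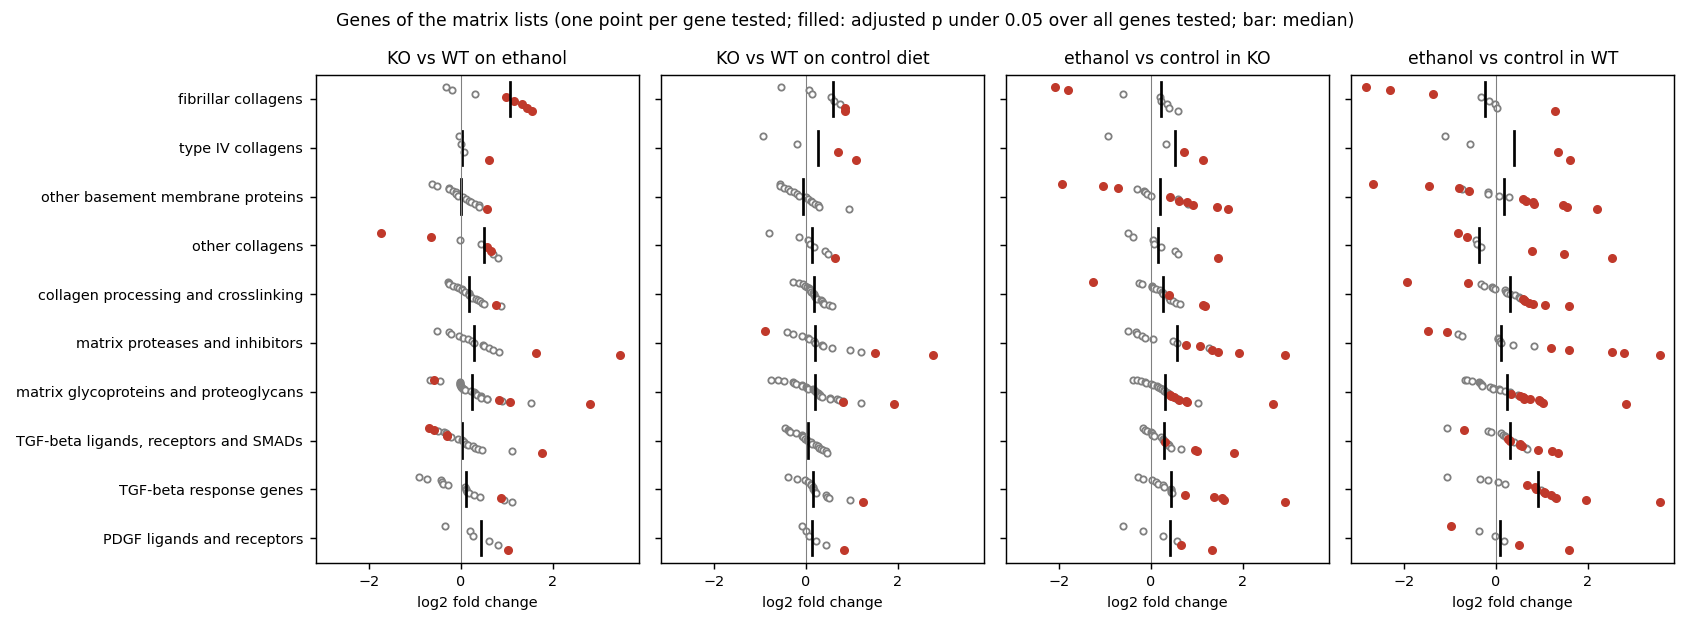
Log2 fold change (x axis) of each tested gene of 10 matrix lists (rows), in 4 comparisons, with filled points where the limma adjusted p was under 0.05 and a bar at the list median. On ethanol 5 of 8 fibrillar collagens are filled right of 0 between genotypes, and 1 of 16 other basement membrane genes is.

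In their level per kilobase, averaged over 4 libraries, Col4a1 came first in both ethanol groups, at 155.6 ± 18.9 normalised reads in knockout and 102.0 ± 19.9 in wild-type livers. Col3a1 came first on control diet, at 75.7 ± 28.3 in knockout and 50.02 ± 12.7 in wild-type livers, within the spread of Col4a1 at 72.3 ± 19.1 in knockout livers and above it at 33.1 ± 5.64 in wild-type livers, where the lowest Col3a1 library (34.9) lay within the Col4a1 range (26.4 to 40.0). Col1a2 and Tgfb1 came next in both control groups. In knockout ethanol livers Col3a1 (50.4 ± 20.0), Col1a2 (48.5 ± 12.6) and Tgfb1 (41.5 ± 5.15) followed within each other's spread, then Col1a1, Des and Acta2 (29.3 ± 9.24, 24.7 ± 2.31 and 21.7 ± 23.5) and Col5a2 (13.6 ± 0.479). In wild-type ethanol livers the order was Tgfb1 (37.0 ± 3.48), Col1a2 (24.5 ± 6.18), Des (23.2 ± 7.20), Col3a1 (19.0 ± 4.18), Col1a1 (9.65 ± 1.97), Acta2 (7.72 ± 1.67) and Col5a2 (5.05 ± 1.40), and Col1a2, Des and Col3a1 overlapped. Timp1 and Lox were lowest in all 4 groups.

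Within groups the genes also varied together, as a description over 16 libraries that share 1 scaling and, within a library, its depth and tissue piece. After the group means were taken out, the Pearson correlation of log2 values was 0.87 between Col1a1 and Col1a2, 0.71 between Col1a1 and Col3a1 and 0.80 between Col5a2 and Col4a1, but 0.03 between Col3a1 and Col4a1 and 0.09 between Col1a2 and Col4a1. In these deviations the collagen I and III genes thus varied together, and Col5a2, though fibrillar, correlated most with Col4a1. Col1a1 correlated about equally with Col5a2 (0.30) and Col4a1 (0.29). With the group means left in, Col5a2 correlated at 0.83 with Col1a1 and at 0.67 with Col4a1.

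**Figure D5:**
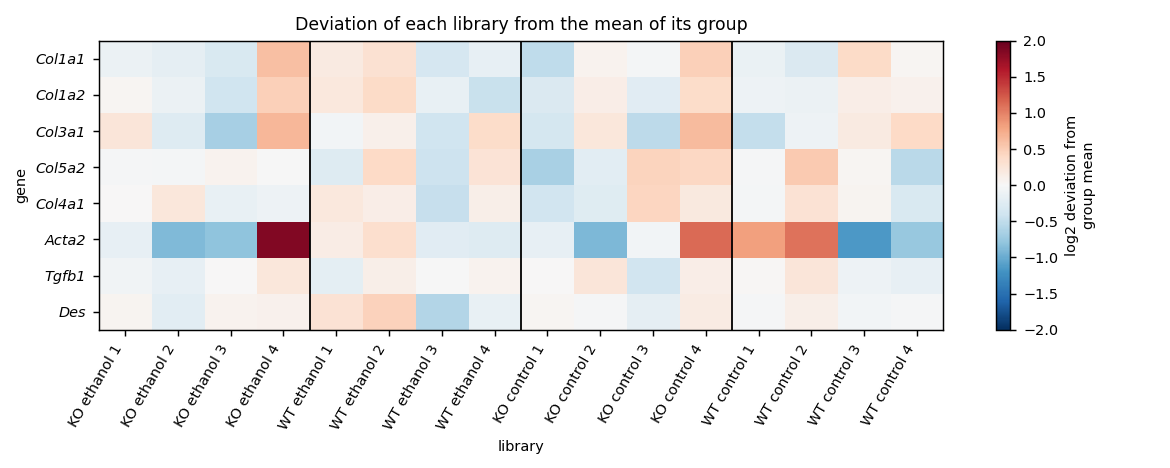
Deviation of each library from its group mean in log2 units (colour, red above and blue below the mean), for the 8 matrix genes tested in 16 libraries. Col1a1, Col1a2 and Col3a1 are all above their mean in library 4 of both knockout groups, and Acta2 deviates most.

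The genes whose pattern was most like the mean of Col1a1, Col1a2 and Col3a1 over the 16 libraries were Ifi27l2a, Fgl2, Sema4d, Ifi211, Eif4e3, Cd52, Fcgr1 and Dock11, with Pearson correlations from 0.87 to 0.90. They were picked for likeness to a profile that was itself higher in knockout ethanol livers. Their genotype difference thus follows in part from the choice, and no test of it is given. Ifi27l2a, an interferon-induced gene, averaged 154 ± 36.7 normalised reads in knockout and 10.0 ± 2.66 in wild-type ethanol livers. Fcgr1, the high-affinity IgG receptor of macrophages, averaged 72.0 ± 12.1 in knockout and 7.43 ± 2.19 in wild-type ethanol livers. The wild-type ethanol mean of Fcgr1 lay under the floor, so Fcgr1 passed the floor through groups where it was higher, the knockout ethanol group among them. Closest to Col4a1 were Fundc2, Orm3, Ccdc120, Rasl10b and Col4a2, with correlations from 0.95 to 0.97. Orm3, of the acute-phase orosomucoid family, averaged 1006 ± 205 normalised reads in knockout ethanol, 801 ± 458 in wild-type ethanol, 114 ± 45.4 in knockout control and 11.7 ± 1.51 in wild-type control livers.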

How the data were processed

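The deposited table gives 1 signal value per gene and library, which the authors made from read counts by dividing them by a size factor for the library. HISAT2 (2.1.0.13), HTSeq and edgeR are named in the submitters' processing notes, with build GRCm38. How size factors were set, the strand setting and the release of the annotation are unstated in the sources used. Every value was a whole multiple of a step for its library (100% within 0.01 of a read), and the whole reads were taken back from these steps. Size factors recovered from the steps matched median-of-ratios factors computed from the whole reads, differing by at most 4.9e-10. Such a factor is the median, over genes, of a library's reads divided by the gene's geometric mean. GENCODE M21 on GRCm38 matched 27233 of 27288 gene identifiers.

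Genes averaging at least 10 were fitted by limma 3.58.1 (R 4.3.3). The deposited values were put on a log2 scale after adding 1, and the fit used a mean-variance trend over 4 group means with 12 residual degrees of freedom. Folds on this scale understate changes of low genes. Calls used a Benjamini-Hochberg adjusted p under 0.05 over all genes tested. The 10 genes and the lists were chosen with earlier results of these data known. Genes named from a list are among the 3 called non-members with the smallest p in a comparison. Likeness took the 8 and 5 genes with the highest Pearson correlation, and Col4a2 was always included. Ctrb1, Hba-a1, Adipoq, Myh11, Cnn1, Actg2, Tagln, Dpt, Clec3b, Thy1, Msln, Upk3b and Lrat are cell markers chosen after their values were seen.

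Levels between genes were divided by the length of the longest transcript that GENCODE tags as principal (by APPRIS). Alternatives were pseudocounts of 0.25 and 4, floors of 0 and 50, a fit with no trend, separate fits of each pair of groups, a block for replicate number, libraries left out (1 at a time, 2 of the knockout ethanol group, or all but 2 numbers), TMM factors, and both edgeR 4.0.16 (quasi-likelihood) and DESeq2 1.42.0 on the recovered reads. edgeR without a floor was added after seeing the data. Deviations from group means of same-numbered ethanol libraries correlated at 0.102 to 0.246. By the rule used (every such value above 0.1) their numbers were read as possible pairs, on this evidence only, as no label explains the numbers. The main fit used no block, so its p-values ignore any such pairing. Some differently numbered libraries correlated as much (0.176 for numbers 1 and 2, 0.179 and 0.199 for 3 and 4), and each positive value lay within numbers 1 and 2 or within 3 and 4. No block of numbers 1 and 2 against 3 and 4 was fitted. The fits were tested on simulated data. One named list gene is not reported here.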

Additional observations from a re-analysis of the deposited data

Results flagged for a closer look

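Of 40 sets of 4 libraries (10 genes in 4 groups), 5 held a library far from the other 3, where chance gives about 1 in 20. Col1a1 in library 4 of the knockout ethanol group was at 255.0 normalised reads, above the others at 135.4 to 155.4. Acta2 in the same library was at 115.5, above the others at 16.3 to 27.5. Des in library 2 of the knockout ethanol group was at 64.4, below the others at 77.7 to 78.9. Des in library 2 of the wild-type control group was at 43.7, above the others at 38.6 to 39.4. Lox in library 3 of the wild-type control group was at 4.54 normalised reads, above the others at 1.97 to 2.08, a difference of 4 reads against 2.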

How the results depend on the processing

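The count of genes called between knockout and wild-type livers on ethanol was 5, and it was 2 without libraries 1 and 4 of the knockout ethanol group and 2 with libraries 3 and 4 alone. Calls over all genes tested were 1310, 496 and 540 in the same fits. For ethanol in knockout livers the count was 2, and it was 1 with no floor, 1 without libraries 1 and 4 of the knockout ethanol group and 0 with libraries 3 and 4 alone. Over all genes the calls were 2543, 2081, 1003 and 697. For ethanol in wild-type livers it was 4, and 2 with libraries 3 and 4 alone, beside 5032 and 2863 over all genes. With 1 library left out, the counts ran from 1 to 4 for genotype on control diet, 4 to 5 for genotype on ethanol, 1 to 2 for ethanol in knockout livers, 4 to 4 in wild-type livers and 0 to 0 for the difference of the ethanol effects. The log2 ratio of Col3a1 to Col4a1 differed between genotypes on ethanol by 0.72, by 0.47 to 0.90 with 1 library left out, and by 0.22 without libraries 1 and 4 of the knockout ethanol group. The cause was not tested; both sets of libraries leave fewer samples. With the replicate number as a block the limma adjusted p of Col4a1 between genotypes on ethanol was 0.0636, and that of Col5a2 on control diet 0.0535; the block ended no other call of the 8 genes, and of named list genes it ended Pdgfc on control diet and Pmepa1 on ethanol, both between genotypes. Same-numbered libraries correlated above 0.1 only between the ethanol groups. Of 77 calls of named list genes, 38 held under every alternative run and 39 were lost under at least 1, 16 of them by leaving out 1 library. Col12a1 with ethanol in wild-type livers reversed, uncalled, to log2 -0.024 with libraries 1 and 2 alone. Timp1 and Lox, at 0 to 27 reads a library, are limited by depth.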
